A study of Mus musculus with 6 samples.

Results

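The genes described here are 40 genes of glycolysis and of the response to low oxygen, given as a list of symbols. The list was chosen with earlier results of these data known. They were found as discovery probes (probes for transcripts) annotated with a member symbol. Of the 40 genes, 37 had a probe of their own, with 44 probes in all, among 18562 named genes on the arrays. The 37 comprised 24 of 25 listed glycolytic enzymes, transporters and flux kinases, and 13 of 15 listed hypoxia regulators and hypoxia-induced genes. No probe was named for Bnip3l or Ankrd37, and Aldoa was named only together with a related gene.

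Mouse embryos were taken at embryonic day 9.5, when the caudal end of the neural tube is still open, and RNA of their posterior part, cut off below the forelimb, was measured on one-colour arrays. There were 3 arrays of Splotch null embryos and 3 of wild-type embryos, all of a strain labelled LMBc, a name that the labels did not explain. Splotch is a mutation of Pax3, a transcription factor of the dorsal neural tube, dermomyotome and neural crest, and the allele was not given. The design text asked which expression differences go with the null genotype. The embryos were untreated as far as the labels say. Nothing in the labels tells 1 embryo from a pool for any array. The p-values therefore measure only the spread between these samples, which may be technical.

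Glycolysis turns glucose into pyruvate in the cytosol. Glucose enters through carriers of the Slc2a family, hexokinase and phosphofructokinase commit it to breakdown, and lactate dehydrogenase and the Slc16a carriers dispose of the end product. When oxygen is scarce, Hif1a protein escapes hydroxylation by the Egln enzymes and destruction through Vhl, pairs with Arnt and activates many of these genes. Early mouse embryos are known for intense glycolysis, and the tail bud of the elongating body axis for an especially high rate.

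Of the 34967 discovery probes, 66.1% to 71.7% were above background per array. Median intensity after background subtraction was 86.4, 86.7 and 121.1 on Splotch null arrays 1 to 3, and 116.3, 99.7 and 84.3 on wild type arrays 1 to 3. Splotch null 3 and wild type 1 were therefore the brightest array of their genotype. One label field gave the tissue as anterior neural tube, whereas the title, the tissue field and the dissection steps all named the posterior end. Of 9 caudal marker genes, 8 were above background on all 6 arrays. Of the forebrain and midbrain markers, Emx2, Lmx1b, Dmbx1 and Hesx1 were above background on all 6 arrays, and Otx2, Emx1 and Barhl2 on none.

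Promoter windows of 4 members are printed, chosen among the genes that carry the array and genotype patterns described further on. The windows are from RefSeq (GRCm38.p6) and run from 250 bases before to 50 bases after an annotated start, 5′ to 3′ on the strand of the gene. Capitals mark the core letters of the HIF binding site, ACGTG or GCGTG, on either strand, with the palindrome CACGTG counted once. Egln1, a HIF prolyl hydroxylase, has its window at chr8:124949205-124949504, minus strand. Slc16a1, a monocarboxylate carrier, has its window at chr3:104638414-104638713, plus strand. Pgk1, phosphoglycerate kinase, has its window at chrX:106186850-106187149, plus strand. Pfkfb3, a kinase that makes the activator of phosphofructokinase, has 2 windows, and the one with more cores is shown, at chr2:11502041-11502340, minus strand.
Egln1: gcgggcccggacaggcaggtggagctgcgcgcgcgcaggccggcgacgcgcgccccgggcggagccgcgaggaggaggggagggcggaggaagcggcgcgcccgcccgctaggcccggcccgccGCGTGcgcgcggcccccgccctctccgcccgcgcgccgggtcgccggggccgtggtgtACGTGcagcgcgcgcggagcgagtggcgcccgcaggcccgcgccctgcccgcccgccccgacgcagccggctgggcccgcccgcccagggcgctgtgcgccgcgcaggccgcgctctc
Slc16a1: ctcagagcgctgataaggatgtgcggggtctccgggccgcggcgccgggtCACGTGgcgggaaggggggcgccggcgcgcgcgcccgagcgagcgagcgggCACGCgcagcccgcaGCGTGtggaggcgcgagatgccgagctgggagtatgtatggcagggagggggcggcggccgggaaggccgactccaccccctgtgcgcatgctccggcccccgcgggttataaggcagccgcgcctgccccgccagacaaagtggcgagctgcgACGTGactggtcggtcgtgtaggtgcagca
Pgk1: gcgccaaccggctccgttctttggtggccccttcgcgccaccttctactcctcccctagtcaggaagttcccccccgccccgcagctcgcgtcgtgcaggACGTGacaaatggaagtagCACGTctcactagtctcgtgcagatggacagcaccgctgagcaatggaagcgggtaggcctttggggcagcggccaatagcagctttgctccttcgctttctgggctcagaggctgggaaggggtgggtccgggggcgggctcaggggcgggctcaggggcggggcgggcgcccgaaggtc
Pfkfb3: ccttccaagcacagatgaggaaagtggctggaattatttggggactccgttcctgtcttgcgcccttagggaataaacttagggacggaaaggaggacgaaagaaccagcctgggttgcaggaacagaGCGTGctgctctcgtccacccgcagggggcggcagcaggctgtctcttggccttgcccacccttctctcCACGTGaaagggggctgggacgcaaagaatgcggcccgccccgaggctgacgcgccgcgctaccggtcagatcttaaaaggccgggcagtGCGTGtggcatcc

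Counted from the annotated start, the cores lie at -126 and -68 in Egln1 and at -150 and -131 in Pgk1. Slc16a1 holds 4 cores, at -200, -149, -134 and 20, and the Pfkfb3 window holds 3, at -122, -53 and 37. Of the 40 members, 36 matched a window, and those without one are Slc2a3, Epas1, Bnip3l and Ndrg1. At least 1 core was found for 32 of 36 members (88.9%), against 62.3% of the 11358 tested genes that have a window and 46.7% of all 27025 genes. At least 2 cores were found for 25 members (69.4%), against 30.9% of tested genes and 19.5% of all genes. Members without a core in any window were Gpi1, Tpi1, Eno2 and Vhl. Vhl, and Pfkfb4 with 1 core, also show the array pattern described further on, but their windows are not printed. A match of these letters is a description of the sequence and not a binding site, and many genes of this list were included because they are known HIF targets.

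The 36 members that could be tested differed little between genotypes. Differences are on the log2 intensity scale, Splotch null minus wild type, with 50 added before the logarithm, so those of dim genes are understated. They ranged from -0.33 to 0.31 with a median of 0.026, beside a median of 0.017 over the 14331 genes tested. Of the members, 20 were higher and 16 lower in Splotch null arrays by any amount, beside 55% of all genes higher and 45% lower. With limma and Benjamini-Hochberg adjustment, 0 of 36 members and 0 of 14331 genes (0%) had an adjusted p under 0.05. At an unadjusted p under 0.05, 1 member (Pfkfb3, lower in Splotch null) passed, beside 205 genes (1.43%), of which 144 (1%) were higher and 61 (0.426%) lower. The genotypes did not overlap for 1 of 34 members measured on all 6 arrays, again Pfkfb3, beside 702 of 13762 genes (5.1%), with 442 (3.21%) higher and 260 (1.89%) lower in Splotch null. In bulk tissue, fewer cells of a type and less RNA per cell cannot be told apart.

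**Figure D1:**
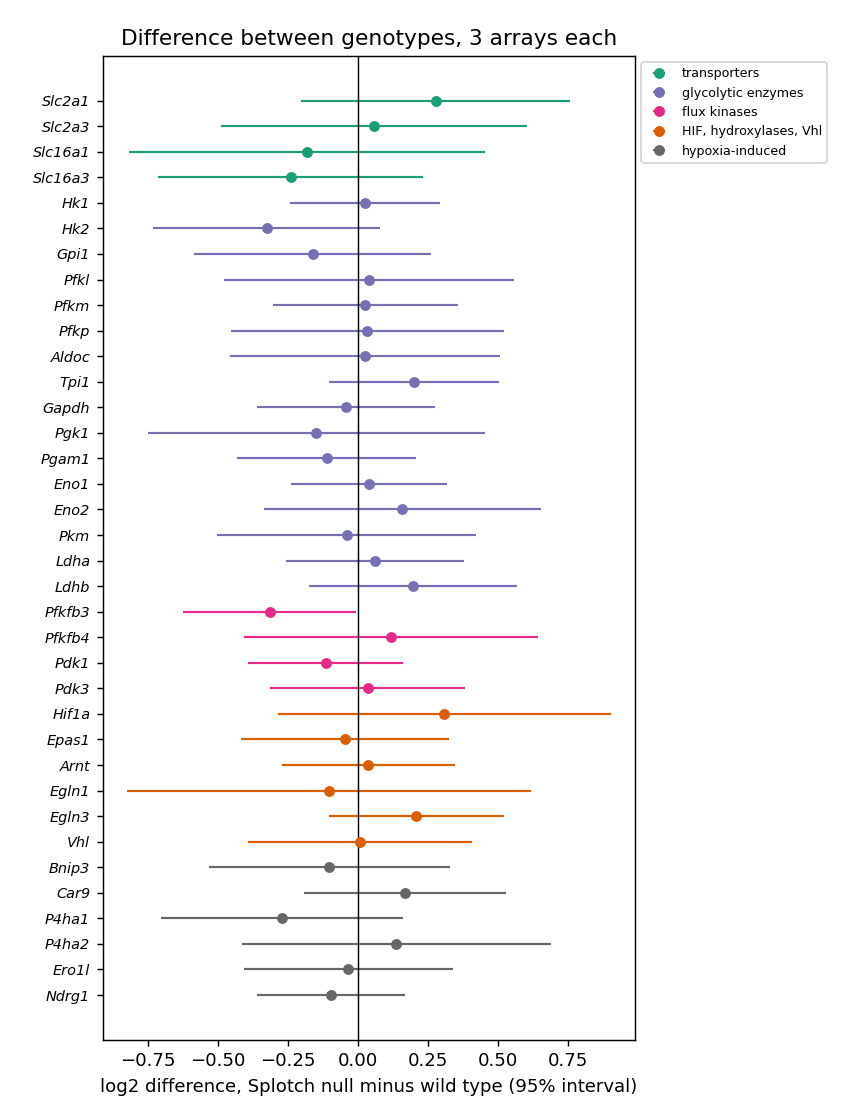
Log2 difference of each tested member, Splotch null minus wild type (x axis), with its 95% interval from limma (3 arrays each). Colours mark the role of the gene. The differences lie between -0.33 and 0.31, and of the 36 intervals only that of Pfkfb3 (-0.62 to -0.01) leaves out 0. Pgam1 and Eno1 were saturated on all 6 arrays and Ldha on 5, so their differences are those of saturated spots.

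Among the 4 transporters, 2 were higher and 2 lower in Splotch null arrays, with a median difference of -0.06. Slc2a1, the main glucose carrier of embryonic tissues, had 10.54, 10.53 and 11.22 in Splotch null and 10.39, 10.52 and 10.54 in wild type. Its level on Splotch null 3 stood above those on the other 5 arrays, which lay between 10.39 and 10.54, and the genotypes overlapped. The difference was 0.28 (SE 0.20, limma unadjusted p = 0.213) and came to 0.05 when Splotch null 3 was left out.

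Slc2a3, a high-affinity glucose carrier, had 8.69, 9.11 and 9.59 in Splotch null and 9.29, 8.99 and 8.95 in wild type. Its lowest and highest arrays were both Splotch null, and the difference was 0.06 (SE 0.23). Slc16a1, which carries lactate and pyruvate across the membrane, had 11.06, 11.44 and 11.93 in Splotch null and 12.10, 11.47 and 11.40 in wild type. The brightest array of each genotype held its highest level, and the difference was -0.18 (SE 0.27).

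Slc16a3, a carrier that exports lactate from glycolytic cells, had 11.33, 11.27 and 10.93 in Splotch null and 11.04, 11.50 and 11.70 in wild type on its brighter probe. The genotypes overlapped, and the difference was -0.24 (SE 0.20, limma unadjusted p = 0.273). Its dimmer probe went the other way, with 8.66, 8.93 and 8.15 in Splotch null and 8.16, 8.35 and 8.68 in wild type. The probes of Slc16a3 thus disagreed in the sign of the difference, at -0.24 and 0.19.

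**Figure D2:**
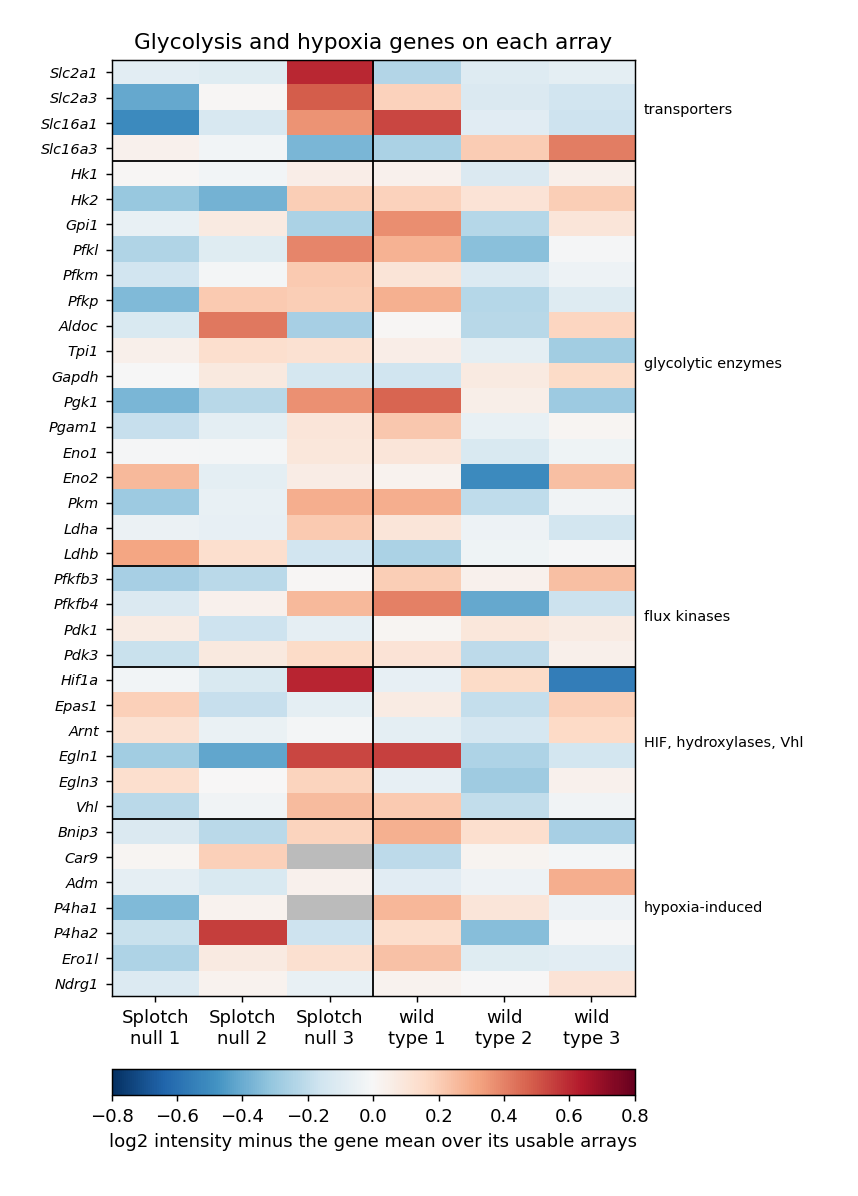
Log2 intensity of each of 37 members on each array, minus the mean of that gene over its usable arrays (colour scale in log2 units). Rows are genes ordered by role, columns are the 3 Splotch null and then the 3 wild type arrays, and grey marks an unusable spot. Splotch null 3 and wild type 1 are redder than the other arrays for many members. Their medians are 0.15 and 0.11 over 33 tested members, without the saturated Pgam1, Eno1 and Ldha.

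Of the 16 tested glycolytic enzymes, 10 were higher and 6 lower in Splotch null arrays, with a median difference of 0.03. Hk2, the inducible hexokinase of the first step, had 11.23, 11.15 and 11.73 in Splotch null and 11.72, 11.64 and 11.73 in wild type. Splotch null 1 and 2 lay below all wild type arrays, and Splotch null 3 lay among them. The difference was -0.33 (SE 0.17), with a limma unadjusted p of 0.0995 and an exact two-sided permutation p of 0.3. Leaving out Splotch null 3 gave -0.50 and a limma unadjusted p of 0.00533 (adjusted p = 0.722). Hk1, the constitutive hexokinase, was among the steadiest members, with a range of 0.17 over the 6 arrays.

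Tpi1, triose-phosphate isomerase, had 10.56, 10.65 and 10.64 in Splotch null and 10.57, 10.44 and 10.24 in wild type on its brighter probe. The genotypes overlapped only through wild type 1, and the difference was 0.20 (SE 0.13, limma unadjusted p = 0.163). Its dimmer probe gave 7.32, 7.45 and 7.32 in Splotch null and 7.37, 7.59 and 7.61 in wild type, a difference of -0.16. The mean of both probes gave 0.02, so the sign of Tpi1 rests on the probe chosen.

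Ldhb, the lactate dehydrogenase subunit of oxidative tissues, had 11.14, 10.96 and 10.66 in Splotch null and 10.56, 10.78 and 10.81 in wild type. The genotypes overlapped, and the difference was 0.20 (SE 0.16, limma unadjusted p = 0.248). Ldha, the subunit of glycolytic tissues, was saturated on all 3 Splotch null arrays and on 2 of 3 wild type arrays. Its values were 14.88, 14.86 and 15.14 in Splotch null and 15.02, 14.88 and 14.78 in wild type, and no fold is given.

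Pgam1, phosphoglycerate mutase, was saturated on all 6 arrays, at 14.62, 14.72 and 14.90 in Splotch null and 15.02, 14.74 and 14.82 in wild type. Eno1, the ubiquitous enolase, was likewise saturated on all 6, at 15.11, 15.11 and 15.22 in Splotch null and 15.22, 15.00 and 15.09 in wild type. These spots were too bright for a genotype difference to be read from them. Gapdh had a dim probe of its own, with a difference of -0.04 and levels between 6.99 and 7.30. Another probe of its own was not above background on any array. A probe shared by Gapdh and Gm5523 was saturated on all 6 arrays, with means of 15.17 in Splotch null and 15.23 in wild type. Gapdh thus entered the counts only through its dim probe.

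A probe shared by Aldoa and its retrogene Aldoart1 had 11.68, 11.84 and 11.81 in Splotch null and 12.03, 11.56 and 11.71 in wild type. Its signal cannot be assigned to either gene, and it stood outside all counts. Aldoc, the brain aldolase, differed by 0.03. The isomerase gene Gpi1 differed by -0.16 and the kinase gene Pgk1 by -0.15. The phosphofructokinase subunits differed by 0.04 for Pfkl, 0.03 for Pfkm and 0.03 for Pfkp. Pkm, pyruvate kinase, differed by -0.04. Eno2, the neuronal enolase, differed by 0.16 and was above background on 4 of 6 arrays.

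Among the 4 kinases that set glycolytic flux, 2 were higher and 2 lower, with a median difference of -0.04. Pfkfb3, described above, had 7.95, 8.01 and 8.23 in Splotch null and 8.42, 8.26 and 8.46 in wild type. All 3 Splotch null arrays lay below all 3 wild type arrays, with a gap between the nearest arrays that is small beside the spread within a genotype. The means were 8.06 ± 0.15 in Splotch null and 8.38 ± 0.11 in wild type (SD, n = 3 each). The difference was -0.31 (95% interval -0.62 to -0.01), a fold of 0.804. The limma unadjusted p was 0.047, the adjusted p was 1, and the exact permutation p was 0.1, the smallest that 3 against 3 can give. Of 20 other settings, 10 had a limma unadjusted p under 0.05, with differences from -0.40 to -0.21 over all of them. The 10 are not independent checks. Other probe filters, saturated spots left out and probe means left the array values of Pfkfb3, and its -0.31, unchanged. Array weights, also among the 10, did not converge, and 19.6% of all genes passed there.

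Pdk1, a kinase that switches off pyruvate dehydrogenase, had 9.51, 9.28 and 9.38 in Splotch null and 9.47, 9.54 and 9.52 in wild type. Its genotypes overlapped through Splotch null 1, and the difference was -0.11 (SE 0.12). Pfkfb4, the relative of Pfkfb3, had 8.87, 9.02 and 9.25 in Splotch null and 9.40, 8.58 and 8.82 in wild type. Wild type held both its highest and its lowest array, and the difference was 0.12 (SE 0.22). Pdk3, another kinase of pyruvate dehydrogenase, differed by 0.03.

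**Figure D3:**
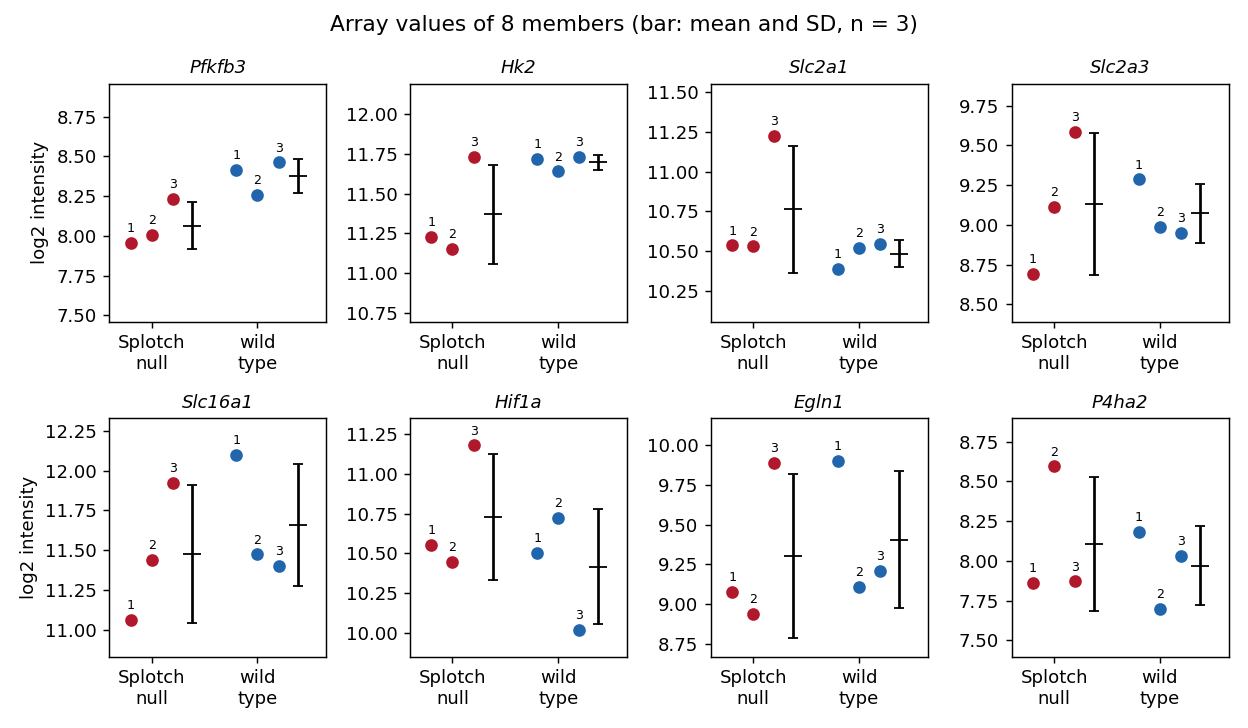
Log2 intensity (y axis, a separate range in each panel) of 8 members on the 3 Splotch null (red) and 3 wild type (blue) arrays. Numbers are replicate numbers, and black bars are the mean and SD of each genotype. Pfkfb3 is the panel in which the genotypes do not overlap, and in the panel of Egln1 the arrays Splotch null 3 and wild type 1 stand apart at 9.89 and 9.90.

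Of the 6 HIF subunits, hydroxylases and Vhl, 4 were higher and 2 lower, with a median difference of 0.02. Hif1a, the oxygen-regulated subunit, had 10.55, 10.45 and 11.18 in Splotch null and 10.50, 10.72 and 10.02 in wild type. It had the widest range of the members, 1.16, between Splotch null 3 and wild type 3, and the other 4 arrays lay within 10.45 to 10.72. The difference was 0.31 (SE 0.25, limma unadjusted p = 0.26), and 0.13 between genotypes over the 4 arrays other than the brightest pair. The array reads RNA, while Hif1a is known to be regulated mainly as a protein.

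Egln3, a hydroxylase that is itself induced by HIF, had 9.22, 9.09 and 9.27 in Splotch null and 9.02, 8.81 and 9.12 in wild type. The genotypes overlapped through Splotch null 2 and wild type 3, and the difference was 0.21 (SE 0.13, limma unadjusted p = 0.156). Egln1, the main oxygen sensor of the HIF pathway, had 9.08, 8.94 and 9.89 in Splotch null and 9.90, 9.11 and 9.21 in wild type. One array of each genotype stood well above the rest, and the difference was -0.10 (SE 0.31). Vhl, which marks hydroxylated HIF for destruction, differed by 0.01, and Arnt, the constant partner subunit, by 0.04. Epas1, the HIF subunit of endothelium, was dim, above background on 4 of 6 arrays, and differed by -0.05.

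Of 7 hypoxia-induced genes with a probe, 6 were tested, of which 2 were higher and 4 lower, with a median difference of -0.06. P4ha1, a collagen prolyl hydroxylase subunit, had 10.33 and 10.71 in Splotch null and 10.95, 10.78 and 10.64 in wild type, because the spot on Splotch null 3 was unusable. The genotypes overlapped, and the difference over 5 arrays was -0.27 (SE 0.18, limma unadjusted p = 0.179). P4ha2, its relative, had 7.86, 8.59 and 7.87 in Splotch null and 8.18, 7.70 and 8.03 in wild type. Splotch null 2 was the array that stood high, and the difference was 0.14 (SE 0.23).

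Car9, a membrane carbonic anhydrase and a widely used hypoxia marker, had 7.29 and 7.46 in Splotch null and 7.07, 7.29 and 7.26 in wild type, with the spot on Splotch null 3 unusable. The genotypes overlapped, and the difference was 0.17 (SE 0.15). Ndrg1, a stress-induced gene, had 8.29, 8.43 and 8.34 in Splotch null and 8.43, 8.41 and 8.51 in wild type. The genotypes overlapped, and the difference was -0.10 (SE 0.11). Bnip3, a mitophagy receptor, differed by -0.10 and Ero1l (now Ero1a), an oxidase of the endoplasmic reticulum, by -0.03 with overlapping genotypes. A dimmer probe of Ero1l, with 7.24, 7.33 and 7.32 in Splotch null and 7.47, 7.39 and 7.38 in wild type, did not overlap between genotypes and differed by -0.12 (limma unadjusted p = 0.317). Adm, the vasodilator peptide adrenomedullin, was not above background on any array and was not tested, with 6.02, 5.97 and 6.13 in Splotch null and 6.01, 6.05 and 6.39 in wild type.

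Of the 15 listed hypoxia genes, 12 were tested, with 6 higher and 6 lower in Splotch null arrays. Their median difference of -0.013 turned to 0.024 with median scaling in place of quantile normalization. The glycolytic genes, 14 higher and 10 lower of 24, had a median of 0.027, and 0.057 with median scaling, where the median of all genes was 0.042.

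Many members also differed between arrays of the same genotype. Of 34 members measured on all 6 arrays, 15 (44.1%) were higher on both brightest arrays, Splotch null 3 and wild type 1, than on any of the other 4, beside 22.5% of 13762 genes. With median scaling 6 members (17.6%) were, beside 16.1% of genes. With quantile normalization 25.3% of genes went the other way, lower on both brightest arrays than on any of the other 4. No count of members is given for that direction. Members were also bright genes. Of the 25 members measured on all 6 arrays and with a mean above the median of all genes, 15 had the pattern of higher levels on both brightest arrays. Of the 7036 such genes, 31.9% had it. The 15 include Pgam1, Eno1 and Ldha, whose spots were saturated, and with saturated spots left out 12 of 31 members had the pattern (38.7%, beside 22.5% of genes). The count was 12 with cyclic loess (35.3%, beside 20.5% of genes). It was also 6 with the authors' normalized intensity, which is likewise divided by the array median. That is nearly the same scaling as median scaling and not a separate result. By the mean of the pair against the mean of the other 4 arrays, 25 of 34 members were higher on the brightest arrays, beside 49.2% of genes, and 21 with median scaling, beside 43% of genes.

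Slc2a3, Slc16a1, Pfkfb4, Egln1 and Vhl had the pattern under both quantile normalization and median scaling. Egln1 was higher on the brightest pair than on the other 4 arrays by 0.81, and by 0.77 with median scaling, the 99.2 percentile of genes with quantile normalization. Slc16a1 was higher by 0.67, and by 0.44 with median scaling. Slc2a3 and Pfkfb4 were each higher by 0.50, and by 0.47 with median scaling. For Pgk1, with 13.79, 13.93 and 14.53 in Splotch null and 14.62, 14.21 and 13.87 in wild type, the 0.62 became 0.067 with median scaling. Pkm, higher by 0.44, was lower by that scaling, at -0.097. Pgk1, Pkm and Vhl were chosen after their values were seen. The part of array brightness in this pattern was not tested.

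**Figure D4:**
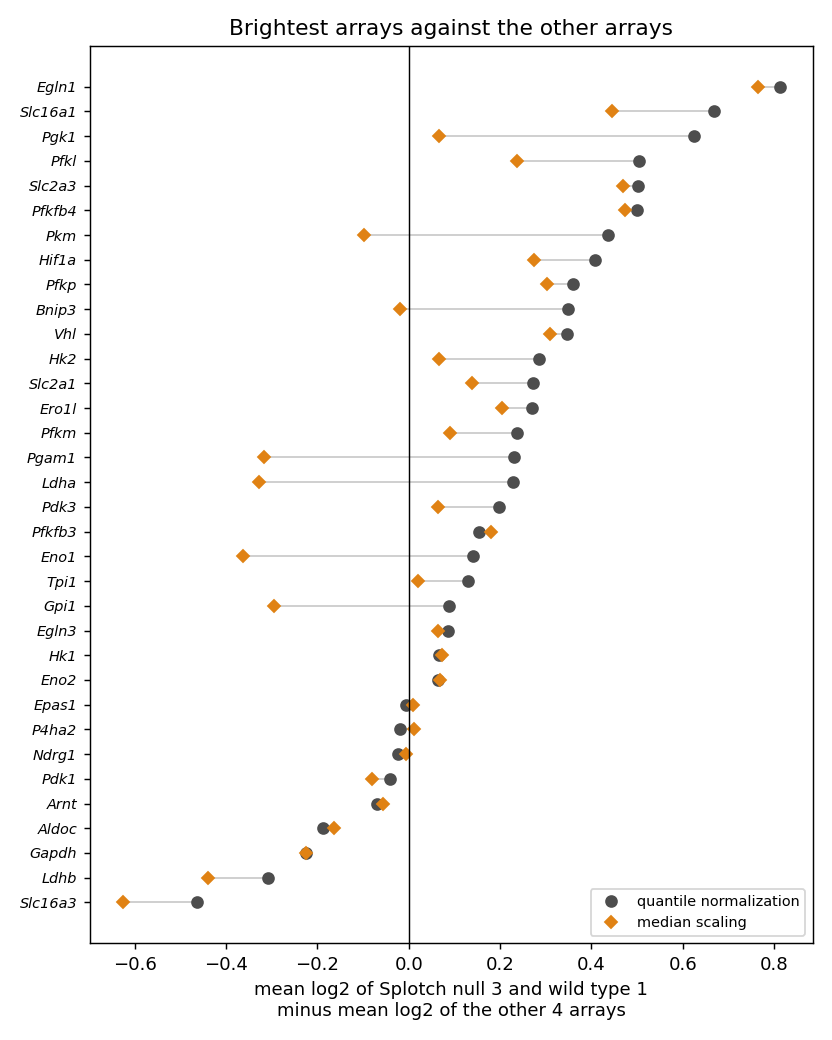
Mean log2 intensity on Splotch null 3 and wild type 1 minus the mean on the other 4 arrays (x axis), for 34 members measured on all 6 arrays. Circles are quantile-normalized and diamonds median-scaled values, joined for each gene. Egln1 stays near the right edge at 0.81 and 0.77, while the bright genes Pgk1, Pkm, Pgam1, Ldha and Eno1 move to the left with median scaling.

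Genes next to these pathways also gave 0 calls at an adjusted p under 0.05. Of 6 tested genes of pyruvate entry into mitochondria, 5 were higher and 1 lower in Splotch null arrays, beside 55% of all genes higher. A limma unadjusted p under 0.05 was reached by 1 of the 6, beside 1.43% of all genes. That gene was Pdha1, the catalytic subunit of pyruvate dehydrogenase, with 7.13, 7.13 and 7.44 in Splotch null and 6.88, 7.01 and 6.85 in wild type. Its genotypes did not overlap, as was so for 5.1% of all genes, and the difference was 0.32 (SE 0.14, limma unadjusted p = 0.0484). Pdhb, the partner subunit, differed by 0.12 on its brighter probe, with overlapping genotypes. Its dimmer probe had 8.67, 8.56 and 8.64 in Splotch null and 8.14, 8.31 and 8.36 in wild type. On that probe the genotypes did not overlap, and the difference was 0.35 (SE 0.12, limma unadjusted p = 0.0196, adjusted p = 1).

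Of 11 other HIF pathway genes, 6 were higher and 5 lower. Cited2, which competes with HIF for its coactivators, had 8.84, 8.98 and 9.01 in Splotch null and 8.82, 7.79 and 8.69 in wild type. The genotypes were separated by a narrow gap, wild type 2 stood low, and the difference was 0.51 (SE 0.27, limma unadjusted p = 0.094). Ep300, one of those coactivators, differed by -0.29 with overlapping genotypes. Of 16 other hypoxia-induced genes, 6 were higher and 10 lower, among them Ddit4, an inhibitor of mTOR signalling, at -0.32 and the collagen cross-linking enzyme Lox at 0.25, both with overlapping genotypes.

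The pentose phosphate pathway gave 3 higher and 3 lower of 6, with Taldo1 (transaldolase) at 0.26 and Rpe (ribulose-phosphate epimerase) at 0.22, both overlapping. Gluconeogenesis gave 3 higher and 1 lower of 4, with Fbp2 at 0.33 and Pck2 at -0.19, both overlapping. Other glycolysis isoforms and carriers gave 9 higher and 8 lower of 17, with Pdk2, a further pyruvate dehydrogenase kinase, at 0.23. Slc2a2, the glucose carrier of liver and endoderm, differed by 0.74, with 7.06, 9.44 and 7.31 in Splotch null and 7.22, 6.96 and 7.39 in wild type.

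Splotch null 2 alone held the high Slc2a2 level. Of 13 visceral endoderm and yolk sac markers, 5 were above background on all 6 arrays and Alb on none. The summed raw intensity of all 13 markers was highest on the same array, at 2725, 55061 and 1314 in Splotch null and 3010, 4636 and 5832 in wild type. Their part in the Slc2a2 level was not tested.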

How the data were processed

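Biotin-labelled cRNA was made from the RNA of 3 Splotch null and 3 wild-type samples, per the labels' protocols. The deposited reports came from CodeLink Expression Analysis 5.0.0.31312 and hold a raw intensity and an intensity divided by the array median, per the file headers. The raw intensity went below 0, to -16.6, so a background had been subtracted, by a method not given in the sources used here. The authors' deposited value table held the normalized intensity on a linear scale, times a constant of 0.9955 to 1.0035, and was not centred by gene, with a column median of 1.0363 on all arrays.

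Spots flagged good, near background or saturated were kept, and 277 to 422 per array were left out. Raw intensity was floored at 0.0119, increased by 50, put on the log2 scale and then quantile-normalized. The 24466 probes above background on at least 3 of 6 arrays were tested with limma 3.58.1 (R 4.3.3) with Benjamini-Hochberg adjustment, and a gene was its brightest probe. Single genes also had an exact two-sided permutation test. Replicate numbers follow accession order and pair nothing. The number of arrays limits the precision. The headers gave no batch.

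Probes were named from GEO's platform annotation, updated by gene identifier to GRCm38.p6 symbols (21487 probes), with 128 platform symbols kept, 535 named by accession, and 681 with several symbols or 12136 with none left unnamed. Array values are given for the up to 3 members of each role with the smallest p, members without overlap, members that were saturated or not above background on all arrays of a genotype, and the 6 widest-ranging ones, and for up to 2 genes of each other list. Members and lists were chosen with earlier results of these data known. The test was also run on data simulated with independent noise for each probe, and the outcome is not given here. Those data held no difference shared across an array, so they cannot show how the test behaves with such differences. Figures were drawn with matplotlib 3.10.9. Alternatives were other scalings, offsets, filters, eBayes settings, array weights, array median as a covariate, probe means and arrays left out.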

Additional observations from a re-analysis of the deposited data

How the results depend on the processing

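No gene passed an adjusted p of 0.05 with limma under any of the 20 alternatives, while 205 genes had an unadjusted p under 0.05 in the fit reported and 117 to 2803 under the alternatives. The number of members with an unadjusted p under 0.05 was 1 in the fit reported (Pfkfb3). It was 0 with median scaling, the authors' value table or normalized intensity, which are nearly the same scaling (beside 1.64% to 1.67% of all genes). It was also 0 with an offset of 10 or trended and robust eBayes (beside 1.33% to 1.38%). It was 8 with array weights, where 19.6% of all genes passed and the weights, from 0.257 to 7.33, did not converge. It was 4 with log2 array median as a covariate (Slc16a3, Hk2, Pfkfb3 and Hif1a, beside 4.73% of all genes) and 2 without the 2 brightest arrays (Hk2 and Pfkfb3, beside 3.11%). Leaving out 1 array gave 0 to 2. It gave 2 without Splotch null 3 (beside 3.9% of all genes, against 1.43% in the fit reported). It gave 0 without each of the others (beside 0.817% to 2.05%). The number of members whose genotypes do not overlap, 1 in the fit reported, was 3 with median scaling, the authors' value table and their normalized intensity, (8.82% of members, beside 5.56% to 5.57% of all genes), and 4 with cyclic loess (11.8%, beside 5.17%). With fewer arrays to overlap, it was 10 of 36 without the 2 brightest arrays (27.8%, beside 33.9% of all genes). It was 6 without wild type 1 (17.6%, beside 12.3%) and 5 without Splotch null 3 (13.9%, beside 25.5%). With any other single array left out it was 3 or 4 (8.82% to 11.8%, beside 9.48% to 14%), each time below the share of all genes. The median differences moved by less than the spread between replicates under all alternatives. Without wild type 2, 9 members were higher and 27 lower, beside a median difference of -0.0009 over all genes. Without wild type 1, 26 were higher and 10 lower, beside a median of 0.011 over all genes. The number of members higher on both brightest arrays was 15 in the fit reported. It was 6 with median scaling, the authors' value table and their normalized intensity, nearly the same scaling. These alternatives were chosen after seeing the data. The cause of these changes was not tested. No paired analysis was possible because the replicate numbers follow accession order only. Dim genes (Adm, Eno2, Epas1), the dim probe of Gapdh and saturated genes (Pgam1, Eno1, Ldha) limit what the arrays can show.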
